A study of Mus musculus with 16 samples.

Results

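A set of 8369 open chromatin regions of mouse pancreatic islets was examined, each of which held the transcription start site (TSS) of a single protein-coding gene and was called as a peak in all 16 samples. The members were chosen by the peak calls themselves. Overlapping or touching peaks of the 16 sample lists were merged into 362076 regions, of which 42427 were called in every sample and are named shared regions below. Of these, 40940 lay on chromosomes 1 to 19, 10396 held a TSS of at least 1 protein-coding gene, and 9269 held the TSSs of exactly 1 such gene. A distance of over 3 kb from the TSS of any other protein-coding gene left 8938 regions, and a width under 5 kb left the 8369 members, which stand at 7858 genes. A promoter that was closed in any strain could not become a member, so presence in all samples is no finding.

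The islets came from the 8 founder strains of the Diversity Outbred mouse population, and each sample was made from 50 islets of 1 sex of 1 inbred strain. The strains were 129S1_SvImJ (129), A_J (AJ), C57BL/6J (B6), CAST_EiJ (CAST), NOD_ShiLtJ (NOD), NZO_HlLtJ (NZO), PWK_PhJ (PWK) and WSB_EiJ (WSB), each with 1 female and 1 male sample, with no treatment and no age in the labels. CAST, PWK and WSB are named wild-derived and the other 5 classical after the study's text. Accessibility was measured by ATAC-seq, in which the transposase Tn5 inserts sequencing adapters into open DNA. The samples per strain are 2, a female and a male, so every p-value for strain rests on the difference between them as its error.

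A promoter is the stretch of DNA at which general transcription factors and RNA polymerase II assemble, and at active genes it is kept free of nucleosomes just before the TSS. Most promoters of widely used genes lie in CpG islands, which are rich in G, C and unmethylated CpG and bind factors such as SP1 at GC boxes and NF-Y at CCAAT boxes. Promoters with a TATA box are more often those of cell type-restricted genes, and in islets they include those of several hormone and granule genes.

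The DNA just before the TSS is printed for members that carry the contrasts described below. Pdhb (a subunit of pyruvate dehydrogenase) and Mcm3 (a subunit of the replicative helicase) had the highest signal in their gene lists, as did Isl1 (a LIM homeodomain factor of endocrine cells). Isoc2b and Cyp2j6 (an arachidonic acid epoxygenase of the cytochrome P450 family) differed widely between strains. Pcsk1 (the prohormone convertase that cuts proinsulin), Chga (chromogranin A of the secretory granule) and Gcg (glucagon) are islet secretory genes. Each line holds the bases from position -120 to -1 relative to the TSS, 5′ to 3′ on the gene's own strand, read from RefSeq's mm10 assembly. Capitals mark matches on either strand to the TATA box TATAAA, the CCAAT box, the GC box GGGCGG, the cAMP response element TGACGTCA and the E box CACGTG.
Pdhb, chr14:8173026-8173145, minus strand: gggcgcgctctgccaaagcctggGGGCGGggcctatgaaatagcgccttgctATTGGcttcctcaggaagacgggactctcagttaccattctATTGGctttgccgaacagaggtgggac
Mcm3, chr1:20820313-20820432, minus strand: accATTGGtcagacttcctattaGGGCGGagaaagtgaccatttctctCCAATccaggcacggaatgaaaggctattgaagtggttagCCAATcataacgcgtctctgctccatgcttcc
Isl1, chr13:116309690-116309809, minus strand: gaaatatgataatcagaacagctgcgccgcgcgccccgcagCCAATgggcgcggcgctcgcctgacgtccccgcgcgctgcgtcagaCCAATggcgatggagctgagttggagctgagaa
Isoc2b, chr7:4866194-4866313, minus strand: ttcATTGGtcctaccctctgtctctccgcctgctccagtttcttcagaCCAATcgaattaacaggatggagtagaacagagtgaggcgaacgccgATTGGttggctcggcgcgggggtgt
Pcsk1, chr13:75089706-75089825, plus strand: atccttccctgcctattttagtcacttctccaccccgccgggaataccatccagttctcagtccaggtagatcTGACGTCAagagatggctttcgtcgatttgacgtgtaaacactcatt
Chga, chr12:102554849-102554968, plus strand: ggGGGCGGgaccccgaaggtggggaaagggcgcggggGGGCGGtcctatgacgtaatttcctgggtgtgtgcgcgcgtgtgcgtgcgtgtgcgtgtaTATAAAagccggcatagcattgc
Gcg, chr2:62483651-62483770, minus strand: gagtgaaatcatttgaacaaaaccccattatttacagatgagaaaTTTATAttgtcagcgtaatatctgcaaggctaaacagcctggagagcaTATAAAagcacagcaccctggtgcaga
Cyp2j6, chr4:96553662-96553781, minus strand: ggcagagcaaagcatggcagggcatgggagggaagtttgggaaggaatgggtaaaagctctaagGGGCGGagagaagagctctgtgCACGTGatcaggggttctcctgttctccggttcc
The stretches of Pdhb, Mcm3 and Isoc2b carried CCAAT boxes and no TATAAA, whereas TATAAA began at position -27 of Gcg and at position -23 of Chga. The stretch of Pcsk1 held 1 TGACGTCA, at position -47, and that of Isl1 held 2 CCAAT boxes and 15 CpGs.

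The members were 200 to 4998 bases wide, with a median of 1870 bases (quartiles 1325 and 2632). A single TSS position of the coding gene lay in 3697 members (44.2%), and the largest number was 16. A TSS of a noncoding gene or transcript also lay in 1300 members (15.5%), so these are single-gene promoters only among coding genes. The nearest TSS of another coding gene stood at a median distance of 33819 bases. Of the 7858 genes, 7431 had 1 member region and 427 had 2 or more, up to 5, and such regions of 1 gene are not independent of each other. The limits of the rule also cut by signal. The 569 regions left out for a width of 5 kb or more had a median signal of 3.76, and the 319 left out for another TSS within 3 kb had 1.87. The widest member, at Zbtb48, measured 4998 bases, and the narrowest region left out for its width, at Rnf103, measured 5000 bases, with mean scaled signals of 2.32 and 5.98. At Pkmyt1 the nearest other TSS was 3001 bases away (signal 2.41), and Ctxn1 was left out at 2999 bases (4.80). Otherwise alike regions that were called in 15 samples numbered 631, with a median signal of 0.575, and 415 of them were missing from the AJ male alone, against 0 to 49 from each other sample.

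Signal is the deposited summit signal of the strongest peak in a region, divided by the median of that sample's shared regions, so that 1 is the typical shared region of a sample (scaled signal). The level of a region is the mean of its 16 scaled signals. Levels of the members ran from 0.280 to 1001 with a median of 1.94 and quartiles of 1.12 and 3.53. In all 16 samples, 4682 members (55.9%) lay above the median shared region, against 25.9% of all shared regions, and 319 lay below it in all. Members made up 19.7% of the shared regions and 55.5% of the 1000 shared regions with the highest level. The deposited strain lists, which keep peaks that the female and male samples share at an irreproducible discovery rate (IDR) of 0.05, held 7001 members (83.7%) in all 8 strains, against 53.6% of the shared regions. By strain, these lists held between 88.5% of the members in AJ and 99.6% in WSB.

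Before the results, 2 features of the samples bear on them. The NZO pair was the least alike at the members, with a median absolute female-male difference of 0.450 on the log2 scale, against 0.136 to 0.352 in the other 7 strains. The median summit signal over the members, before scaling, was 68.0 in the PWK male and up to 271, in the CAST male, so weak promoters were measured more coarsely in the former.

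Promoters were more accessible than distal shared regions in every strain. The median member had a scaled signal of 1.53 in the B6 male, 1.84 at the middle of the samples and 2.50 in the 129 female. Shared intergenic regions over 3 kb from any TSS and under 5 kb wide (10941 regions) served for comparison. The member median exceeded theirs by 1.15 ± 0.23 on the log2 scale (SD, n = 8 strains), in 8 of 8 strains (exact two-sided sign-flip test over strains, p = 0.00781, which is its minimum). The smallest difference was seen in the B6 male (0.70, 1.62-fold) and the largest in the NZO male (1.72, 3.29-fold). Both sets had to be called in all 16 samples. Members were wider (median 1870 against 883 bases) and richer in GC (54.7% against 44.5%). The part of the calls, width and GC in this difference was not tested.

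**Figure D1:**
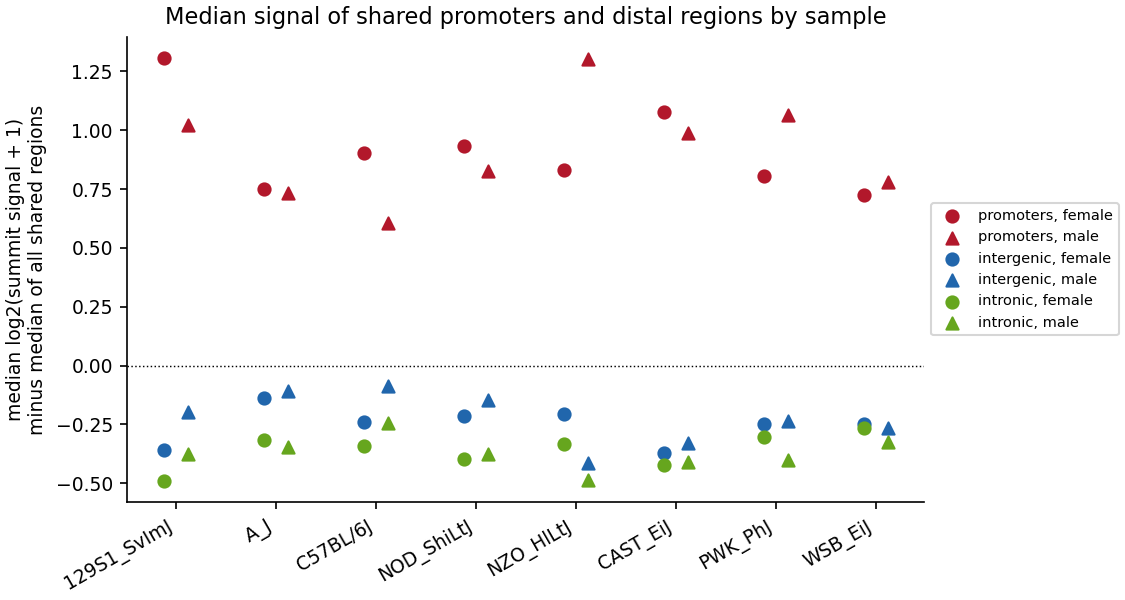
Median scaled signal (log2, centred on the shared regions of each sample) of the member promoters and of shared intronic and intergenic regions, for females (circles) and males (triangles) of the 8 strains. The promoter medians lie between 0.61 and 1.31 in every sample, while the intergenic medians lie between -0.42 and -0.09.

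This excess of promoter over intergenic signal did not separate the strain classes. It was 1.19 ± 0.19 in the 3 wild-derived strains and 1.13 ± 0.26 in the 5 classical strains (SD), a difference of 0.06 (exact permutation test over 56 choices of strains, two-sided, p = 0.732, smallest possible 0.0179). Females exceeded males in 5 of 8 strains, by 0.03 ± 0.37 (SD, n = 8), with an exact sign-flip p of 0.836. The values by strain were wide apart, with female minus male differences of 0.45 in 129, 0.45 in B6 and -0.68 in NZO.

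The label of promoter was checked by the position of the strongest signal. The summit lay at a median of -36.5 bases from the nearest TSS of the gene (quartiles -97.5 and 17.5), 68.0% of members had it upstream, 61.3% within 100 bases and 91.5% within 500 bases. Choosing the nearest of several TSSs shortens this distance, and over the 3697 members with 1 TSS the median was -35.0 bases, with 63.6% upstream. The position was steady between samples. The sample medians ran from -41 bases in the AJ male to -33 in the PWK male, and the position of a given member varied over a median range of 88 bases across the 16 samples. Some strong regions peaked elsewhere, such as those of Slc39a10 (a zinc transporter), with its summit 2392 bases after the TSS, and Gcg, with its summit at -1492 bases.

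**Figure D2:**
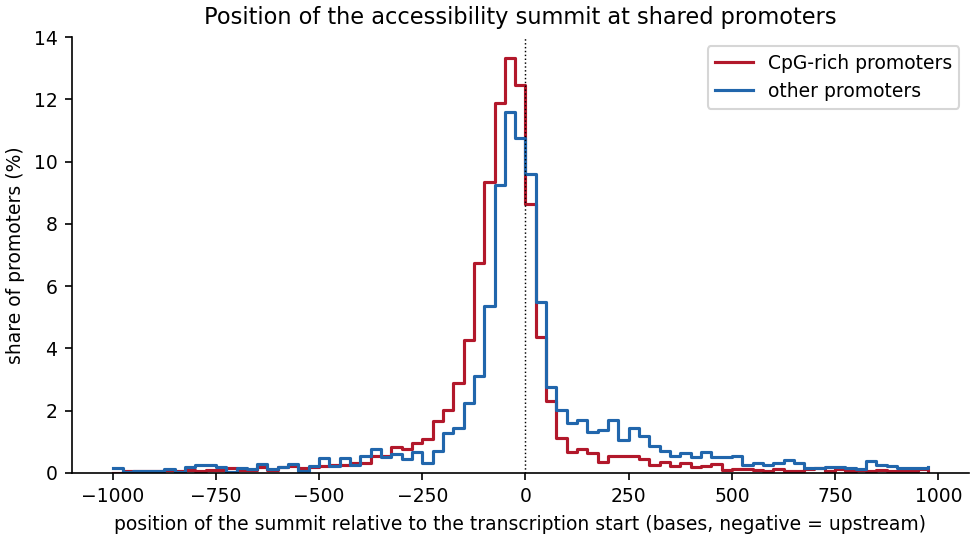
Distribution of the position of the signal summit relative to the nearest TSS of the gene, in bases along the direction of transcription, for CpG-rich and other members. Both distributions are highest just before the TSS, with medians of -46 for CpG-rich and -14 for other members.

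Base composition divided the members. In the window from 250 bases before to 50 after the TSS, 5658 members (67.6%) were CpG-rich, against 42.5% of the windows of all 20807 protein-coding genes. CpG-rich here is an observed to expected CpG ratio of at least 0.6 and a GC content of at least 50%. The window of a member was set on the TSS nearest to its summit, and that of each coding gene on the 5′ end of the annotated gene. The windows were thus placed by different rules, and the part of this in the difference was not tested. CpG-rich members had a median level of 2.14 and the 2711 others of 1.52. The difference of the medians was 0.47 ± 0.09 on the log2 scale (SD, n = 8 strains), positive in each strain (exact two-sided sign-flip p = 0.00781). It was lowest in the WSB female (0.33) and highest in the 129 female (0.70). CpG-rich members were also wider, with a median of 1960 against 1654 bases.

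Short motifs were counted as letters on both strands of these windows, which were placed by different rules in members and in all coding genes. The GC box GGGCGG, bound by SP1 and related factors, occurred in 65.3% of members and 43.7% of all coding genes. TATAAA was the rarer in members, with 6.27% against 12.7%. CCAAT was as frequent in both (38.9% and 38.6%), and members with it had a median level of 2.26 against 1.78 without. The ETS site CCGGAAGT stood in 7.10% of members against 4.80%, the NRF1 core GCGCATGC in 5.07% against 3.45%, AAGATGGC, the YY1 site, in 3.79% against 2.93%, and the E box CACGTG in 10.2% against 7.82%. Levels were highest with TCTCGCGA (2.52, in 1.84% of members) and with the cAMP response element TGACGTCA (2.51, in 3.42%). All coding genes had them in 1.35% and 2.43%. None of these motifs contains another. The windows with TATAAA were CpG-rich in 49.1% of cases, those with CCAAT in 66.7% and those with each of the others in 76.2% to 91.6%. These counts are descriptions and were not tested.

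The highest levels stood out in part as repeated DNA. Gm10800 (level 1001), Gm21738 (301) and Gm10801 (245) had the top signals, and in their regions 58.2%, 33.6% and 49.7% of 32-base stretches occur more than once in the mm10 assembly. At Gm10800 the signal was lowest in the CAST male (505), with a median of 889, and highest in the 129 female (1820). The next levels were far lower. Evi5l (a Rab GTPase-activating protein relative), with no repeated stretch, had a level of 25.6 (14.4 in the CAST female, median 25.2, 41.3 in the AJ male), followed by M6pr (the cation-dependent mannose 6-phosphate receptor of lysosomal enzyme sorting, 21.2), Cldnd1 (20.5), Zfp960 (20.4) and Msantd4 (19.9). At Evi5l, M6pr, Cldnd1 and Msantd4 the lowest sample was the CAST female and the highest the AJ male. The lowest members were Tspan11 (a tetraspanin, 0.305), Tmem196 (0.301), Gsta4 (a glutathione transferase, 0.286) and Pcdha11 (a clustered protocadherin, 0.280).

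Some promoters were close to constant. Over the 16 samples, Zfp329 had the smallest SD of the centred log2 signal (0.10), with scaled signals from 3.63 in the WSB female to 4.62 in the PWK male and a median of 4.21. Vapa (a membrane protein of endoplasmic reticulum contact sites) ran from 5.17 to 7.11 with a median of 6.10, and Zfp213 and Rabgap1 (a Rab GTPase-activating protein) from 5.26 to 6.95 and from 3.57 to 4.71. These 4 were picked as the least variable of all members, so their constancy is a description.

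Islet identity genes were present among the members. Of 9 beta cell markers, 5 were members and the other 4, Ins1, Ins2, Slc2a2 (the glucose transporter GLUT2) and Ucn3 (urocortin 3), lay in shared regions of 5 kb or more. The 5 members were Iapp (amylin, level 1.02), Pdx1 (1.62), Mafa (1.84), Nkx6-1 (3.12) and G6pc2 (a glucose 6-phosphatase of beta cells, 3.27). At Iapp the signal was 0.366 in the NOD male, 1.01 at the median and 1.70 in the WSB male. Of the alpha cell markers, Gcg (4.04 ± 1.02, SD, n = 16) and Irx2 (0.920 ± 0.347) were members, with Gcg lowest in the NZO male at 1.85 and highest in the NOD female at 5.90. Of the delta cell markers, Rbp4 was a member (0.620), and Sst and Ppy, the delta and PP cell hormones, had no peak at a TSS in any sample. Among 9 acinar markers, among them Cpa1, Ptf1a and Cel, none had a peak at a TSS. No endothelial (5 markers) or leukocyte (6) marker was a member, although Tek was called in 11 samples and Cd68 in 15. The members from the lists of non-endocrine cells were Cftr (a chloride channel of duct cells, 0.592) and Pdgfra (a receptor of stromal cells, 0.594), both below the typical shared region. In such bulk samples, fewer cells of a type and less open DNA per cell cannot be told apart.

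Gene lists are described beside all members, whose median level was 1.94 and of which 22.3% differed between strains by the test given below. Of 30 endocrine transcription factor genes, 14 were members with 15 regions, a median level of 1.11 and 3 regions called, and 5 more lay in shared regions of 5 kb or more. Isl1 was highest, at 4.40 ± 0.82 (SD, n = 16) with samples from 3.39 to 5.94, and St18 lowest, at 0.533 ± 0.124. Rfx6 (a factor needed for islet cell formation) had a region of 3.45 ± 0.70 and a weaker one at another of its TSSs of 0.582 ± 0.196. Of 33 granule and exocytosis genes, 14 were members with 17 regions (median 1.42, 4 called). Pam, which amidates peptide hormones, was the highest at 5.96 ± 0.82, while Chga stood at 0.787 ± 0.273. Pcsk1 ran from 0.945 in the NZO male to 4.33 in the CAST female around a median of 2.66 and differed between strains (adjusted p = 0.0118, limma). Rims2 (an active zone protein of exocytosis) had 3 member regions, with levels of 4.91, 0.809 and 1.42. Of 27 genes of beta cell glucose metabolism and ion channels, 13 were members with 15 regions (median 2.34, 1 called). Among them was Gipr (the receptor of the incretin GIP), at 2.87 ± 0.62. The called region was 1 of 3 at Cacna1c (the pore of an L-type calcium channel), with 0.528 to 2.09 over the samples, while the other Cacna1c regions had adjusted p-values of 0.227 and 0.793.

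Among housekeeping groups, the median levels of cell cycle genes (3.15, 23 regions) and of mitochondrial and redox genes (2.79, 27 regions) were above that of all members, and those of splicing (1.31, 16 regions) and of general transcription (1.48, 15 regions) were below it. Mcm3 was the highest cell cycle gene at 17.5 ± 4.61 (SD, n = 16), and Top2a, topoisomerase II alpha, the lowest at 0.717 ± 0.317. Pdhb led the mitochondrial list at 10.8 ± 1.69, with samples from 8.47 to 15.2, and Gpx1 (glutathione peroxidase 1) was its lowest at 0.742 ± 0.353. Splicing held Prpf19 (a subunit of the spliceosome, 5.22 ± 1.99) and Srsf1 (a splicing regulator, 0.693 ± 0.396), and general transcription held Gtf2a1 (a TFIIA gene, 5.19 ± 0.73) and Polr2c (an RNA polymerase II subunit, 0.626 ± 0.300). Median levels were 1.89 for translation factors (17 regions, from Eif3b at 0.512 to Etf1 at 4.44), 2.13 for proteasome and ubiquitin genes (21, from Psmd11 at 0.864 to Psmc6 at 7.01) and 2.35 for ER protein handling (16, from Ern1, the unfolded protein sensor IRE1, at 0.674 to the disulfide isomerase Pdia6 at 6.98). For insulin signalling the median was 2.17 (23 regions, from Tsc1 at 0.534 to Gsk3b at 8.67), for circadian genes 1.85 (14, from Tef at 1.02 to Arntl, or BMAL1, at 4.39) and for immediate early genes 1.95 (6, from Egr3 at 1.10 to Nr4a2 at 5.12). Of 22 immediate early genes, 17 lay in shared regions of 5 kb or more and so were not members.

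Regions called between strains in these lists are to be read against 22.3% of all members. They numbered 4 of 15 (26.7%) for general transcription, 3 of 16 (18.8%) for splicing, 3 of 23 for cell cycle, 3 of 23 for insulin signalling, 2 of 21 for the proteasome, 2 of 16 for ER protein handling, 2 of 14 for circadian genes, 1 of 27 for mitochondrial genes, 1 of 17 for translation factors and 1 of 6 (16.7%) for immediate early genes. Mcm3 was among them, running from 11.2 in the WSB female through a median of 17.6 to 27.0 in the AJ male (adjusted p = 0.0249, limma).

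Strain was tested by limma's moderated F test with sex as a covariate, over all 42427 shared regions at an adjusted p under 0.05. It called 1867 of the 8369 members (22.3%), against 34.9% of all shared regions. At an unadjusted p under 0.05 it called 3288 members (39.3%), against 50.8% of all shared regions. By the adjusted p, other coding promoters in shared regions were called in 16.2% of cases and TSSs of noncoding genes in 38.8%. Exonic regions were called in 39.5%, intronic in 40.7% and intergenic in 40.9%. Without centring each sample the shares were 67.4% of members and 62.3% of all, so the order of the shares depends on the scaling. The number of calls moved by over 1.5 times when any 1 of 10 libraries was left out. It rose without either NZO sample and fell without either sample of CAST, AJ, NOD or WSB. The number of calls over all shared regions moved in the same direction each time, so these moves were not particular to the members.

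The called members were weaker and poorer in CpG than the rest. Over 5 groups of members of equal size, ordered from low to high level, 31.5%, 25.3%, 18.5%, 17.0% and 19.2% were called. Of the CpG-rich members 17.7% were called, against 31.9% of the others. The largest deviation of a strain from the mean of the other 7 had a median size of 0.94 on the log2 scale among called members and of 0.54 among the rest. It reached 1 in 786 called members (42.1%) and in 183 of the others (2.81%). The calls came from the same values as these deviations, so the contrast describes what was called.

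The strain that stood farthest from the others was most often CAST. It was CAST in 506 of the 1867 called members (27.1%), lower in 383 of them and higher in 123. This was a smaller share than among all called shared regions, where it was CAST in 4744 of 14823. Of these 4744 regions, 74.3% were lower in CAST. AJ followed with 345 (279 lower, 66 higher), which is 18.5% against 11.1% of all called shared regions. PWK had 237 (140 lower, 97 higher), or 12.7% against 17.1%, and NZO had 201 (68 lower, 133 higher), or 10.8% against 10.4%. B6 had 179, of which 173 were lower, or 9.59% against 5.76%. Where each stood farthest among all called shared regions, AJ was lower in 56.5%, PWK in 56.8%, NZO in 58.5% and B6 in 64.4%. WSB stood farthest in 155 members (135 lower), or 8.30% against 10.2% of all called shared regions. The strain was 129 in 128 (98 higher), or 6.86% against 7.27%, and NOD in 116 (73 higher), or 6.21% against 6.12%. Over all called shared regions, WSB was lower in 60.6% of its cases, while 129 was higher in 31.9% and NOD in 45.3%. The directions at called members ran beside shifts of all members. The median deviation over all 8369 members was 0.26 in 129, 0.12 in NZO, -0.13 in B6, -0.14 in AJ and -0.19 in WSB, with the sign of the more frequent direction. Against that direction, it was 0.10 in CAST, 0.04 in PWK and -0.0034 in NOD. Over all shared regions it was 0.086 in 129, -0.038 in NZO, -0.0029 in B6 and 0.067 in AJ. There it was -0.070 in WSB, -0.014 in CAST, 0.022 in PWK and 0.041 in NOD. The part of these shifts in the directions was not tested. All reads had been aligned to the mm10 assembly, which is of C57BL/6J, and its part in these directions was not tested.

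**Figure D3:**
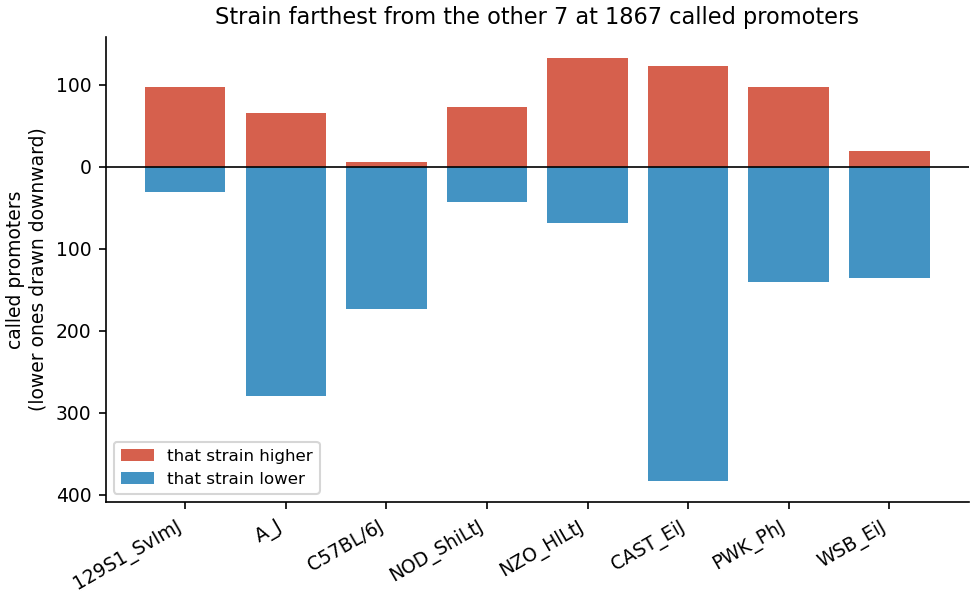
Number of called members for which each strain stood farthest from the mean of the other 7 strains, with members in which it was higher drawn upward and those in which it was lower drawn downward. CAST (383 lower) and AJ (279 lower) have the longest bars downward.

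The members with the smallest p-values lay mostly in repeated DNA. They were Gm8108, Gm10406, Gm2237, Gm14326, Gm3411, Gm3512, Gm14295, E030030I06Rik, Gm14419, 2210418O10Rik, Cyp2j6 and Gm14391, with adjusted p from 7.63e-07 to 1.29e-05 (limma), and 10 of these 12 had at least 50% repeated 32-base stretches. Of the 83 members with at least 50%, 60 were called (72.3%), and of the 8286 others 1807 (21.8%). Reads from near-identical copies can be placed at either, so signal at these genes is uncertain. The placement of reads was not examined. The predicted genes Gm14326, Gm14391, 2210418O10Rik and Gm14419 on chromosome 2 are alike in sequence to different degrees. A stretch of 100 bases before each TSS is printed from RefSeq's mm10 assembly, 5′ to 3′ on the gene's strand, with a CCAAT box on the opposite strand in capitals.
Gm14326, chr2:177957426-177957525, minus strand: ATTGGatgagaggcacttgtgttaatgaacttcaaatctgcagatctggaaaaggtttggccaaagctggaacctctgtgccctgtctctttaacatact
Gm14391, chr2:175206999-175207098, minus strand: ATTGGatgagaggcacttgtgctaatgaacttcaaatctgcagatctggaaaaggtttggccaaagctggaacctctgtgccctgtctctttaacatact
2210418O10Rik, chr2:176226369-176226468, plus strand: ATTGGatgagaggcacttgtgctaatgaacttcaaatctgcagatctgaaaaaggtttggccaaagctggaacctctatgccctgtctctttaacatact
Gm14419, chr2:177000728-177000827, plus strand: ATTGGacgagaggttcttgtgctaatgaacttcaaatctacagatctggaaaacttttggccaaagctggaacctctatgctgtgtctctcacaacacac
Gm14326 and Gm14391 were identical in 99 of the 100 bases, Gm14391 and 2210418O10Rik in 98, and Gm14326 and Gm14419 in 81. The levels of these promoters differed between strains. At Gm14326 the signal was 3.22 in the 129 female and 35.2 in the CAST male, and at 2210418O10Rik it was 13.1 in both NOD samples against 1.09 to 13.0 in the other 14. Gm10406, on chromosome 14, had 23.5 and 34.2 in the PWK female and male, 0.419 and 0.817 in the NOD pair, and up to 11.4 in the samples other than PWK.

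At promoters with little repeated sequence the strain differences were as wide in places. Differences below are the log2 distance of a strain mean from the mean of the other 7 strains with its SE, and both samples of the strain lie beyond the other 14, as the choice of these genes required. The directions are therefore descriptions, and the adjusted p is that of the strain F test. Cdh7, which encodes a cadherin (chr1:109981400-109985799), had scaled signals of 0.152 and 0.206 in the CAST female and male and of 0.709 to 4.86 in the others. The CAST mean differed by -3.84 ± 0.30 (adjusted p = 6.25e-05). In CAST the promoter of Cdh7 was thus called as a peak but stood well below the typical shared region.

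WSB was low at Nat1, which encodes an arylamine N-acetyltransferase (chr8:67480631-67481304). The WSB samples had 0.132 and 0.102 and the others 0.457 to 2.45, a difference of -2.85 ± 0.22 (adjusted p = 3.69e-05). Zfp456 (chr13:67375151-67376516), a zinc finger gene with 43.4% repeated stretches, was also low in WSB, at 0.68 and 0.57 against 2.58 to 9.45. Higher in WSB were Nacad, with 3.80 and 3.58 against 0.468 to 1.70, and Hrasls5 (a phospholipid-metabolizing acyltransferase), with 3.39 and 3.08 against 0.345 to 2.29, where 129 lay farther from the other strains on the low side (-1.90).

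AJ was low at Isoc2b (chr7:4865164-4867013), the promoter printed above with 3 CCAAT boxes. Its signal was 1.92 and 1.38 in the AJ female and male and 6.29 to 9.95 in all others, a difference of -2.36 ± 0.17 (adjusted p = 8.80e-05). Isoc2b was thus a strong promoter in 7 strains, and the gap to AJ was wider than the range of the other 14 samples. Plekhm2 (a lysosome adaptor for kinesin) was low in AJ at 0.338 and 0.145 against 0.482 to 1.36, with an adjusted p of 0.00456 that became 0.0607 without the AJ male. AJ was high at Hs3st5 (a heparan sulfate sulfotransferase, chr10:36506032-36510018), with 7.26 and 8.29 against 0.419 to 6.38 (2.16 ± 0.22, adjusted p = 1.45e-05). The strain farthest from the others at Hs3st5 was CAST, at 0.42 and 0.49 (-2.48), and NOD was next to AJ at 5.60 and 6.38. Gcnt1, a glycosyltransferase of mucin-type sugars, had 1.82 and 2.24 in AJ against 0.257 to 1.49.

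PWK was low at S100a4 (a calcium-binding protein, chr3:90603595-90605337), with 0.210 and 0.313 against 0.381 to 2.11 (-2.38 ± 0.23, adjusted p = 7.24e-05). It was also low at Gsdme (gasdermin E, which forms membrane pores in cell death), with 0.161 and 0.313 against 0.723 to 1.69 (-2.31 ± 0.24). At S100a4 the CAST samples were next, at 0.381 and 0.441, and all 12 samples of the other 6 strains lay at 0.855 or above.

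B6, the strain of the assembly, was low at Shisa7, with 0.131 and 0.217 against 0.258 to 1.90, and at Rbp4 (the retinol carrier, a marker of delta cells, chr19:38123949-38125482). At Rbp4 the B6 female and male had 0.226 and 0.0964 and the others 0.360 to 1.03 (-2.06 ± 0.23, adjusted p = 0.000942). Among genes higher in B6 was Pkd1l1, a polycystin relative, with 3.99 and 5.13 against 0.469 to 3.92, where PWK lay farther on the low side (-2.30). The summit at Pkd1l1 lay 2528 bases after the TSS, so this signal was not at the TSS itself.

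NZO was high at Trim30a, an interferon-induced gene of innate immunity (chr7:104464700-104465759), and at Fmn1 (formin 1, an actin nucleator). The 2 NZO samples differed widely there. Trim30a had 0.975 in the female and 4.27 in the male against 0.133 to 0.534 in the others (2.50 ± 0.33, adjusted p = 0.00179), with 22.9% repeated stretches. Fmn1 had 1.01 and 4.11 against 0.279 to 0.877, and its adjusted p of 0.0248 rose to 0.122 at most when either or both CAST samples were left out or when regions called in at least 12 samples were tested. NZO was low at Ntm (neurotrimin, a cell adhesion protein), with 0.210 and 0.127 against 0.390 to 0.841, and at Robo3 (an axon guidance receptor), with 0.605 and 0.491 against 1.14 to 2.26.

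For 129, Dicer1 (the nuclease that makes microRNAs) was higher, with 3.05 and 2.74 against 0.476 to 2.19, although CAST lay farther on the low side (-1.63), and Slc39a10 was lower, with 0.569 and 0.783 against 1.40 to 4.54. For CAST, Pnp2 (a purine nucleoside phosphorylase, 46.1% repeated stretches) was higher, with 1.99 and 2.54 against 0.415 to 0.952. Of the genes that stood out in NOD by this rule, Gm14408, 2210418O10Rik, Gm10406 and Gon4l, all had at least 81.1% repeated stretches. Of the 12 members with the smallest p-values, Cyp2j6 (chr4:96550949-96554304), with 3.37% repeated stretches, and E030030I06Rik, with 27.8%, were the ones under 50%. Cyp2j6 was low in 2 wild-derived strains. Its signal was 1.10 and 1.21 in the CAST female and male, 2.11 and 2.09 in the PWK female and male and 5.29 to 10.6 in all others.

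**Figure D4:**
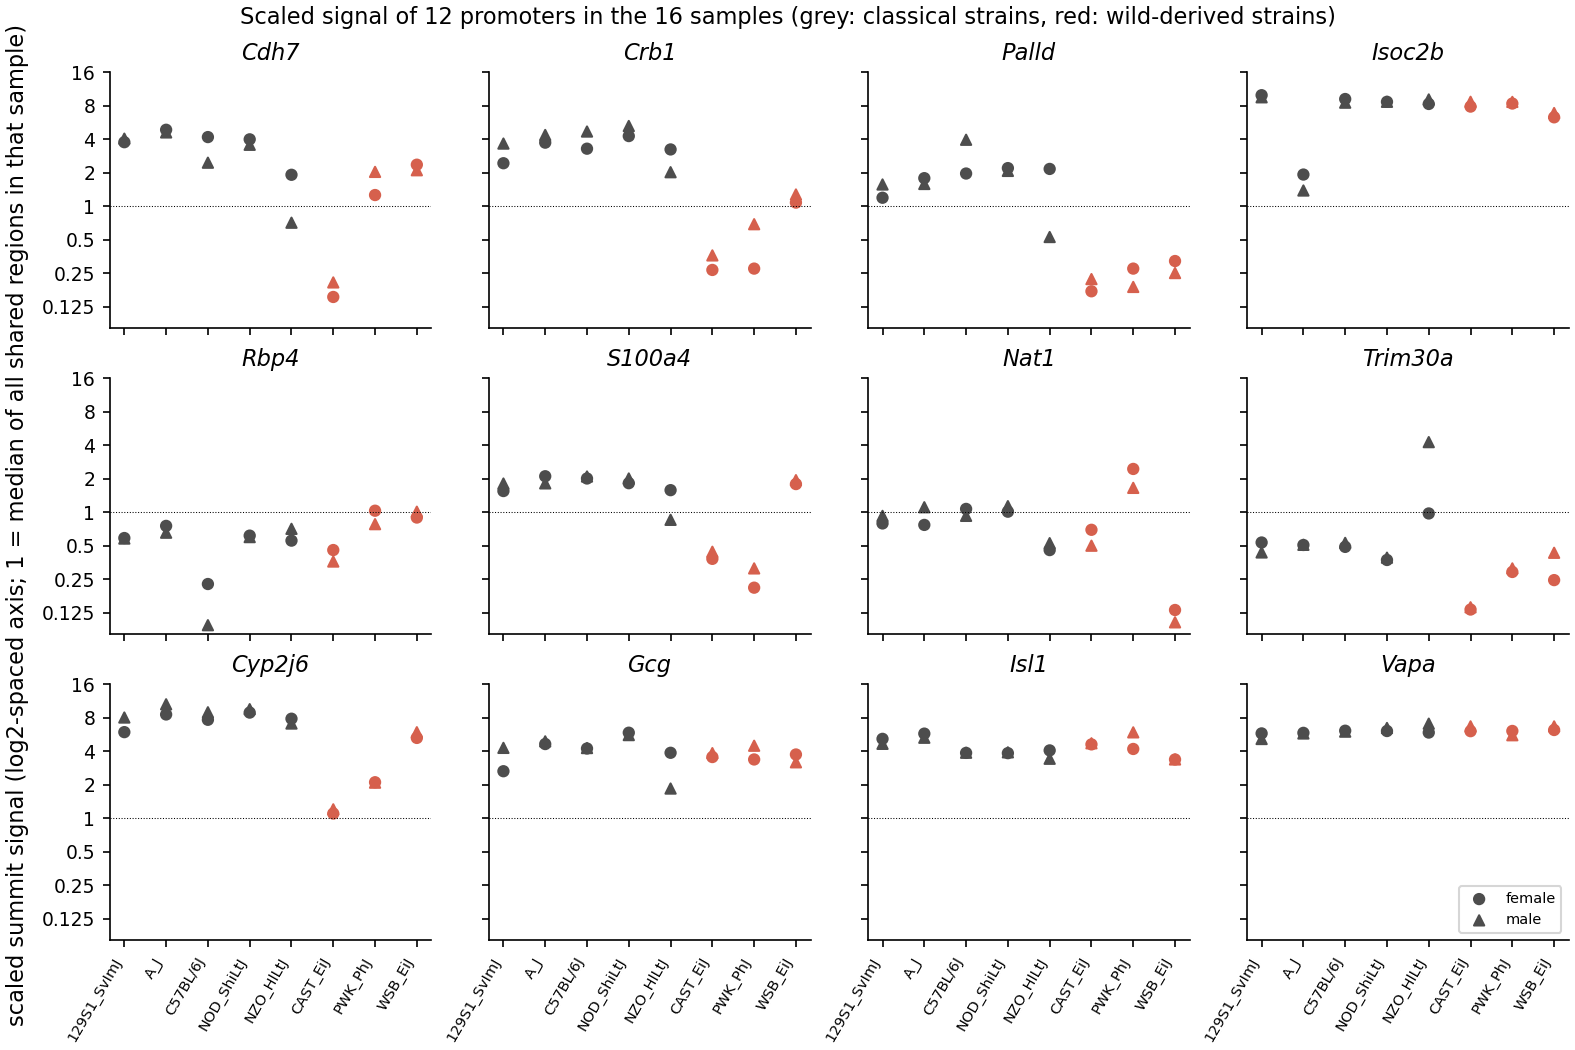
Scaled signal (log axis) of 12 member promoters in the 16 samples, by strain, with females and males as separate points. The pair of low points is CAST for Cdh7, AJ for Isoc2b, WSB for Nat1 and PWK for S100a4, while Isl1 and Vapa stay within a narrow band.

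The wild-derived strains were compared with the classical strains on the 8 strain means. No member was called higher in the wild-derived strains, against 0.00707% of all shared regions, and 2 were called lower, against 0.0259%. At an unadjusted p under 0.05 limma called 486 of the 8369 members, 144 higher and 342 lower. That is near the 0.05 share that would pass with no class difference, and the share over all shared regions is not given here. The 2 members called lower after adjustment were Palld (palladin, which bundles actin, chr8:61902600-61903926) and Crb1 (a cell polarity protein of the crumbs family, chr1:139375699-139377541). At Palld, whose summit lay at -567 bases, the 6 wild-derived samples ran from 0.171 to 0.321. The 10 classical samples ran from 0.527 to 3.95, with no overlap (-2.81 ± 0.30, SE, adjusted p = 0.0127). At Crb1 the ranges were 0.267 to 1.27 and 2.02 to 5.26 (-2.68 ± 0.38, adjusted p = 0.0391). Neither was called without the NZO female (adjusted p = 0.221 for Palld and 0.182 for Crb1) with centring on the members (0.114 and 0.255) or among regions called in at least 12 samples (0.189 and 0.406). Crb1 alone was also lost with the deposited mean signal (0.0872) and without CAST (0.109), and, at adjusted p from 0.0502 to 0.0738, without any 1 of the 129 male, the AJ male, the B6 male, the CAST male, the PWK female, the PWK male or the WSB female. With both samples entered and strain as a random block, 23 members were called, 4 higher and 19 lower, against 248 of all 42427 shared regions.

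Sex moved no member past the threshold. limma called 0 members between females and males with strain in the model, against 0.00943% of all shared regions (4 regions). At an unadjusted p under 0.05 it called 143 of the 8369 members, fewer than the 0.05 share that would pass with no sex difference. The share over all shared regions is not given here, so whether this is particular to the members cannot be told.

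The 2 sexes of a strain resembled each other at the promoters. The median absolute difference of centred log2 signal over the members was 0.265 ± 0.113 within strains (SD, n = 8 female-male pairs) and 0.381 ± 0.116 for females paired with males of other strains (n = 56 pairs, which share samples). The exact permutation test over all pairings of females with males gave a one-sided p of 0.00151. Alike pairs were those of WSB (0.136), NOD (0.171), CAST (0.176) and AJ (0.182), and NZO (0.450) was the least alike.

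The members varied less between strains than intergenic regions did. The median absolute deviation of a strain from the mean of the other 7 was 0.255 ± 0.047 at members and 0.315 ± 0.047 at intergenic regions (SD, n = 8 strains). The difference of 0.060 ± 0.047 was positive in 7 of 8 strains, 129 being the exception (exact two-sided sign-flip p = 0.0156). The spread between the sexes of a strain was smaller at members too, by 0.062 ± 0.033 in 8 of 8 strains (exact p = 0.00781). The ratio of deviation between strains to the female-male difference was 1.15 ± 0.54 at members and 1.09 ± 0.46 at intergenic regions, and these did not differ beyond their spread (-0.060 ± 0.274, exact p = 0.602). Among 2590 members and 3846 intergenic regions of intermediate mean signal, the middle of 3 groups of equal size into which both sets together were divided, the difference between strains was 0.0079 (exact p = 0.703), although 24.7% of these members and 42.2% of these intergenic regions were called by the F test. There the female-male difference was no longer smaller at members, with 0.342 against 0.321 at intergenic regions (exact p = 0.477).

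**Figure D5:**
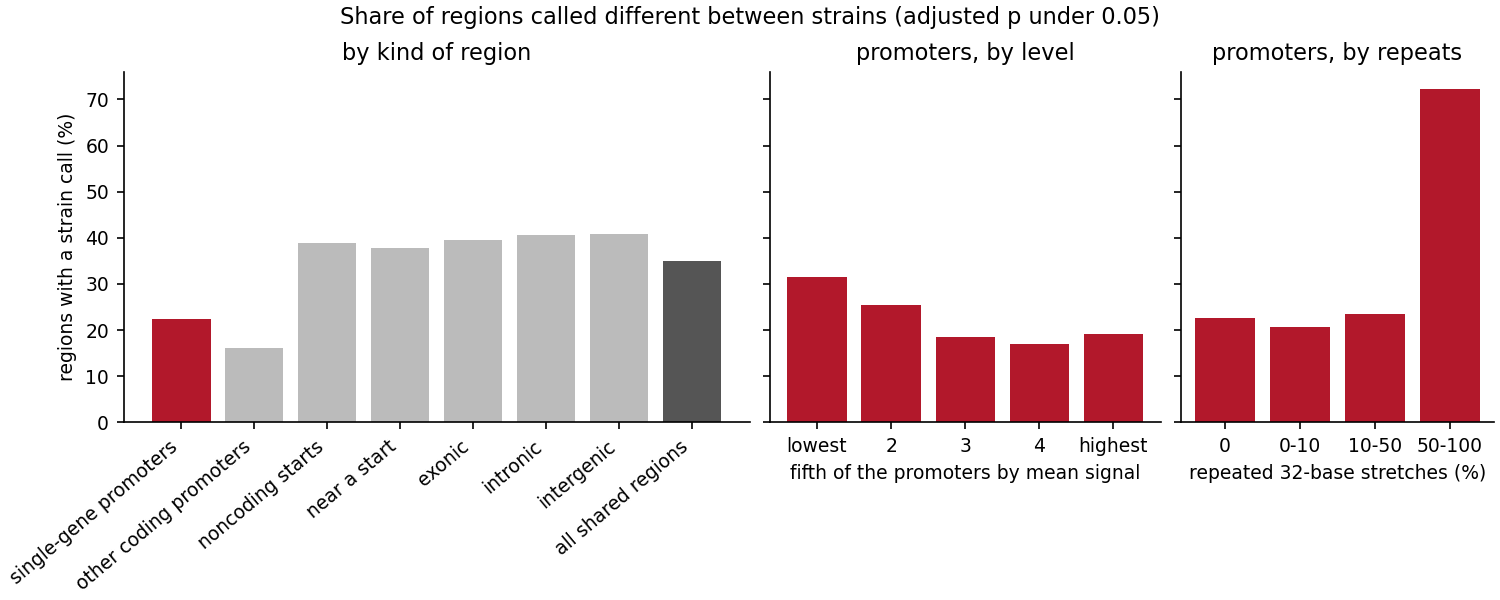
Share of regions that differed between strains (limma F test, adjusted p under 0.05) in each class of shared region, in percent, in 5 equal groups of members by level, and in members by their percentage of repeated stretches. Members stand at 22.3%, other coding promoters at 16.2% and the 3 distal classes near 40%.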

How the data were processed

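ATAC-seq peaks of islets from 8 strains and both sexes were analysed, 1 sample each. The authors trimmed reads with cutadapt 2.0, aligned them to mm10 with Bowtie2 2.3.4.1, and removed unmapped, mitochondrial and duplicate reads with SAMtools and Picard 2.9.2. Peaks were called by MOSAiCS in each sample separately (false discovery rate 0.05), and a shift of read ends for Tn5 is not given in the sources used here. The deposited signal of a peak is a whole number at its summit, not scaled to depth. The deposited −log10 p-value of each peak served only for an alternative. The peak lists hold no read totals, and the study's read numbers were not used here, so no interval from counts is given. TSSs came from protein-coding transcripts of the GENCODE annotation of mm10.

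The largest summit signal per region was taken as log2(signal + 1), centred on the median of the shared regions, and fitted with limma 3.58.1 in R 4.3.3, with Benjamini-Hochberg adjustment over all 42427 shared regions. Folds on this scale understate changes of low regions. The strain class fit used the 8 strain means, and medians over regions were tested by exact permutation over strains. The scripts were tested on simulated data. Motifs and repeated stretches were read from RefSeq's mm10 assembly. Python 3.11.15 with pysam 0.24.0 was used.

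Members and gene lists were chosen with earlier results of these data known. Named genes were the 8 highest and 4 lowest levels, the 12 smallest strain p-values, up to 5 per direction for class and sex, the 4 smallest SDs, up to 2 per strain and direction beyond the other 14 samples, the markers, and the extremes of each gene list, with further list genes given as examples. Female and male are the replicates of a strain, and whether they share a litter or batch is not given in the sources used here. All p-values measure the spread between these samples only. Alternatives covered the signal column, pseudocount, centring, variance trend, covariates, peak threshold, TSS definition, distances and left-out samples, and 1 of them, leaving out repeated regions, was chosen after seeing the data.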

Additional observations from a re-analysis of the deposited data

Results flagged for a closer look

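Of 82 groups of samples examined for a sample far from the others, 9 were flagged, each because the gap from 1 sample to the next took up an unusually large part of the range of its group. Chance flags about 1 in 20 groups, and genes named for a strain difference were not examined.

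A pair of flags concerned whole libraries. The median position of the summit relative to the TSS was -33.0 bases in the PWK male and -36 to -35 in the other wild-derived samples. The share of members formed by 1 peak was 87.8% in the 129 female and 81.2% to 84.1% in the other classical samples.

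Further flags fell on the top levels. Gm10800 had a scaled signal of 1820 in the 129 female against 568 to 1035 in the other females, and of 1530 in the PWK male against 505 to 795 in the other wild-derived samples. Gm21738 had 555 in the 129 female against 147 to 312, and 513 in the PWK male against 147 to 247. In the regions of these genes 58.2% and 33.6% of the 32-base stretches were repeated in the assembly.

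The others were Evi5l, at 28.7 in the PWK female against 14.4 to 19.2 in the other wild-derived samples, Tmem196, at 0.598 in the NOD male against 0.231 to 0.395 in the other classical samples, and Gsta4, at 0.438 in the PWK male against 0.221 to 0.295 in the other wild-derived samples. Their causes were not tested.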

How the results depend on the processing

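The excess over intergenic regions (1.11 to 1.20 with each sample left out in turn), the difference by CpG content (0.46 to 0.48), the agreement of the sexes (-0.14 to -0.096) and the absence of calls by sex (0 to 0) kept their direction and side of the threshold in every alternative tried for them. Other centring, among it centring within bins of GC content, the variance trend and regions called in at least 12 samples were tried only for the counts of calls. The excess and the difference by CpG content were thus not tested with centring by GC content. The smaller deviation between strains (0.053 to 0.074) was lost among regions of intermediate mean signal (0.0079). The strain count of 1867 became 1156 with centring on the members, 5642 without centring, 3028 with a variance trend, 728 over regions called in at least 12 samples, 656 without CAST and 761 to 4327 with each sample left out. It was 1299 with the deposited mean signal, 2428 with a pseudocount of 10 and 1807 without the repeated members. The strain class count of 2 became 23 with strain as a random block, 6 without centring, 0 with centring on the members, 0 over regions called in at least 12 samples, 1 without CAST and 0 to 3 with each sample left out. The direction of the excess by sex, which missed the threshold (-0.03 to 0.13 with samples left out) reversed with the mean signal (-0.014), without either 129 sample (-0.028) and without either B6 sample (-0.028). By class (-0.0088 to 0.13) it reversed without CAST (-0.038) and without the NZO female (-0.0088). The causes of these changes were not tested. The labels pair samples by strain and sex and give no replicate numbers. Sex is a term of the strain fit, and without it 2205 members were called (26.3%, against 38.4% of all shared regions). With 2 samples per strain and no read counts behind the signal, a strain difference at a single weak promoter remains imprecise.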
